A study of Mus musculus with 24 samples.

Results

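The 48 cell cycle and mitosis genes described here are the G1 and mitotic cyclins with *Cdk1*, the helicase loaded at replication origins, enzymes of nucleotide supply, mitotic kinases, and proteins of the spindle, the spindle checkpoint and the kinetochore. They were set by name and found through the gene name column of the array annotation. All 48 were on the array, with 81 of its 41174 non-control probes, which carry 27398 gene names in all. RNA was from L4 and L5 dorsal root ganglia (DRGs) of adult male mice labelled C57BL/6J. *Nfil3* KO mice, in which NFIL3, a transcription factor of the basic leucine zipper family, is absent from every cell because Cre was expressed in germ cells, were compared with wildtype (WT) mice. In both genotypes DRGs were taken at day 2 or day 5 after the sciatic nerve had been cut and its ends rejoined, or, as control, from the non-injured side of the mice. This gave 6 groups of 4 samples on Agilent 4x44K whole mouse genome arrays. Each sample occupied a single dye channel, 2 of the 4 in Cy3 and 2 in Cy5. Every array held 2 samples, so that the 24 samples were on 12 arrays. The labels call the tissue DRG neurons, but markers of satellite glia, Schwann cells, macrophages and endothelium were also well above background, so that the values are of whole ganglia. In such tissue a change in the number of cells of a type and a change in RNA per cell cannot be told apart.

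The cell cycle is driven by cyclins that activate kinases in turn. D and E cyclins act before DNA synthesis, the MCM helicase loaded with CDC6 opens the replication origins, and A and B cyclins with CDK1 drive entry into mitosis, which ends when the anaphase-promoting complex with CDC20 and UBE2C marks cyclin B for destruction. DRG neurons do not divide in adult mice, while satellite glia, Schwann cells, macrophages and endothelial cells can re-enter the cycle, and cell division in the ganglion after a nerve lesion is known from such non-neuronal cells.

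Levels are given as log2 of the background-corrected and quantile-normalized intensity of the brightest probe of a gene, and are not comparable between genes. A probe is called well above background when the scanner software marked it so. Of the 48 genes, 30 were well above background in all 24 samples and 45 in at least 4. *Ttk* was well above background in no sample, *Aurkb* in 2 and *Cdk1* in 3. *Nfil3* itself was at 8.44 to 9.01 in WT control, at 10.34 to 10.76 in WT day 2 and at 10.64 to 11.09 in WT day 5 samples. KO samples were at 2.82 to 7.59, below every WT sample, and the highest of these, 7.59, was KO control replicate 4, a sample for which another label field gives day 5. Samples correlated at 0.946 to 0.9777 with each other over all probes, none were identical, and between 54.5% and 72.3% of probes were well above background.

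Promoter windows of 4 genes on which the results turn are shown first, since cell cycle genes are known for a few short promoter elements. *Ccnb2* and *Prc1* stand for genes of mitosis, and *Mcm3* and *Mcm5* for genes of origin licensing. The windows are from RefSeq (GRCm38.p6), run from 250 bases before to 50 after the start of the gene, and read 5′ to 3′ on the strand of the gene. Capitals mark every match on either strand to the cell cycle homology region (CHR, TTTGAA), the CCAAT box (CCAAT) and the core of an E2F site (GGCGGGA).
Ccnb2: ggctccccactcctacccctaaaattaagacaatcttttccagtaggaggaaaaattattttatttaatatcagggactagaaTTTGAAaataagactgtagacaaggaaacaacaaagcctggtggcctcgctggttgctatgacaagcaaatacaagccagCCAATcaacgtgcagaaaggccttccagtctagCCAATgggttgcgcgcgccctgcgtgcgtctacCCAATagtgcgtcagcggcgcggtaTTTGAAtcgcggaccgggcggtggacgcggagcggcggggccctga
Prc1: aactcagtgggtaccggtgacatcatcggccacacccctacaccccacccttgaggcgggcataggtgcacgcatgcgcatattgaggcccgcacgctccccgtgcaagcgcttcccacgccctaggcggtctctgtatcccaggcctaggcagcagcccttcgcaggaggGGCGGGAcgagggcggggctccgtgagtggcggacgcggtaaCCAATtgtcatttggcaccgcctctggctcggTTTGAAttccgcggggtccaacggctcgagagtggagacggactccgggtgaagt
Mcm3: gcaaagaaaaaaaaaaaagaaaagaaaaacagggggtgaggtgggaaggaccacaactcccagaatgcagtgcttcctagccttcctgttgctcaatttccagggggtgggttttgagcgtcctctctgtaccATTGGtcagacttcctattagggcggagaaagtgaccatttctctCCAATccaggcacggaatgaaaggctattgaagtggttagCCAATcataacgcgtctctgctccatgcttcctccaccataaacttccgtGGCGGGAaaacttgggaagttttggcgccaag
Mcm5: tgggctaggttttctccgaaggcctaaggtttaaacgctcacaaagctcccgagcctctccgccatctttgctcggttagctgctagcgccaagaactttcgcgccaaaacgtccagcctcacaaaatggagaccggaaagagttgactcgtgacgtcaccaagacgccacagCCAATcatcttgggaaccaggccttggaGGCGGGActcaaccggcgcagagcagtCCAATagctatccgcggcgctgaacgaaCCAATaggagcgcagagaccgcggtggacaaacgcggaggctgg
The windows lie at chr9:70421505-70421804 on the minus strand, chr7:80294201-80294500 on the plus strand, chr1:20820263-20820562 on the minus strand and chr8:75109259-75109558 on the plus strand. *Ccnb2* held 2 CHR and 3 CCAAT matches and no E2F core, *Prc1* held 1 match to each, and *Mcm3* and *Mcm5* each held 3 CCAAT matches and 1 E2F core without a CHR. This split did not hold for all genes of either kind. The *Mcm2* window held a CHR and no E2F core, those of *Mcm6*, *Mcm7* and *Cdc6* held neither, and those of the mitotic genes *Ccnb1*, *Bub1* and *Birc5* held no CHR.

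A promoter window was found for 39 of the 48 genes and for 27025 genes in all. The CHR was present in 19 of the 39 windows (48.7%), against 20.2% of all genes. A CCAAT box was present in 29 (74.4%), against 41.1%, and the E2F core in 12 (30.8%), against 12.7%. Where a gene had several windows, any of them could hold the match. Motifs counted for NFIL3 (TTATGTA or TTACGTA, on either strand) matched 1 of the 39, *Mcm6* (2.56%), against 3.56% of all genes. Among the 21 genes with a window that rose at day 2, 11 held a CHR (52.4%) and 8 an E2F core (38.1%), and among the other 18 the numbers were 8 (44.4%) and 4 (22.2%). These matches describe letters in a window and are not evidence of binding.

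Sciatic nerve lesion was followed at day 2 by higher levels of genes from nearly every step of the cycle, among them *Prc1*, which bundles microtubules of the central spindle, at 5.28-fold. With both genotypes in the contrast, 26 of the 48 genes rose and none fell (54.2% passed the threshold, limma adjusted p of 0.05 over all probes), where 21.2% of all probes passed in either direction and 9.33% passed as higher. The median change of the 48 was 0.51 on the log2 scale, against -0.02 over all probes, and the change was above 0 for 44 of them. In 15 of the 48, every day 2 sample was above every control sample, which held for 3.41% of all probes.

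At day 5 the number was similar, with 21 genes higher and 2 lower (47.9%, against 22.2% of all probes in either direction, 9.6% higher and 12.6% lower). The median change was 0.40, against -0.04 over all probes, and 40 changes were above 0. In 11 genes every day 5 sample lay above every control sample (5.07% of all probes), and in 1, *Mcm2*, every day 5 sample lay below (5.51%). Both time points were compared with the same control samples, so that their calls are not independent of each other. The share of all probes that passed at both times was not counted. 19 genes passed at both times, 7 at day 2 alone (*Ccne2*, *Plk1*, *Pcna*, *Nusap1*, *Foxm1*, *Melk* and *Ndc80*), 4 at day 5 alone (*Mcm2*, *E2f1*, *Cenpe* and *Nuf2*), and 18 at neither, each by its brightest probe. Apart from *Mcm2*, none of these 11 differed between day 2 and day 5 in the direct test.

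**Figure D1:**
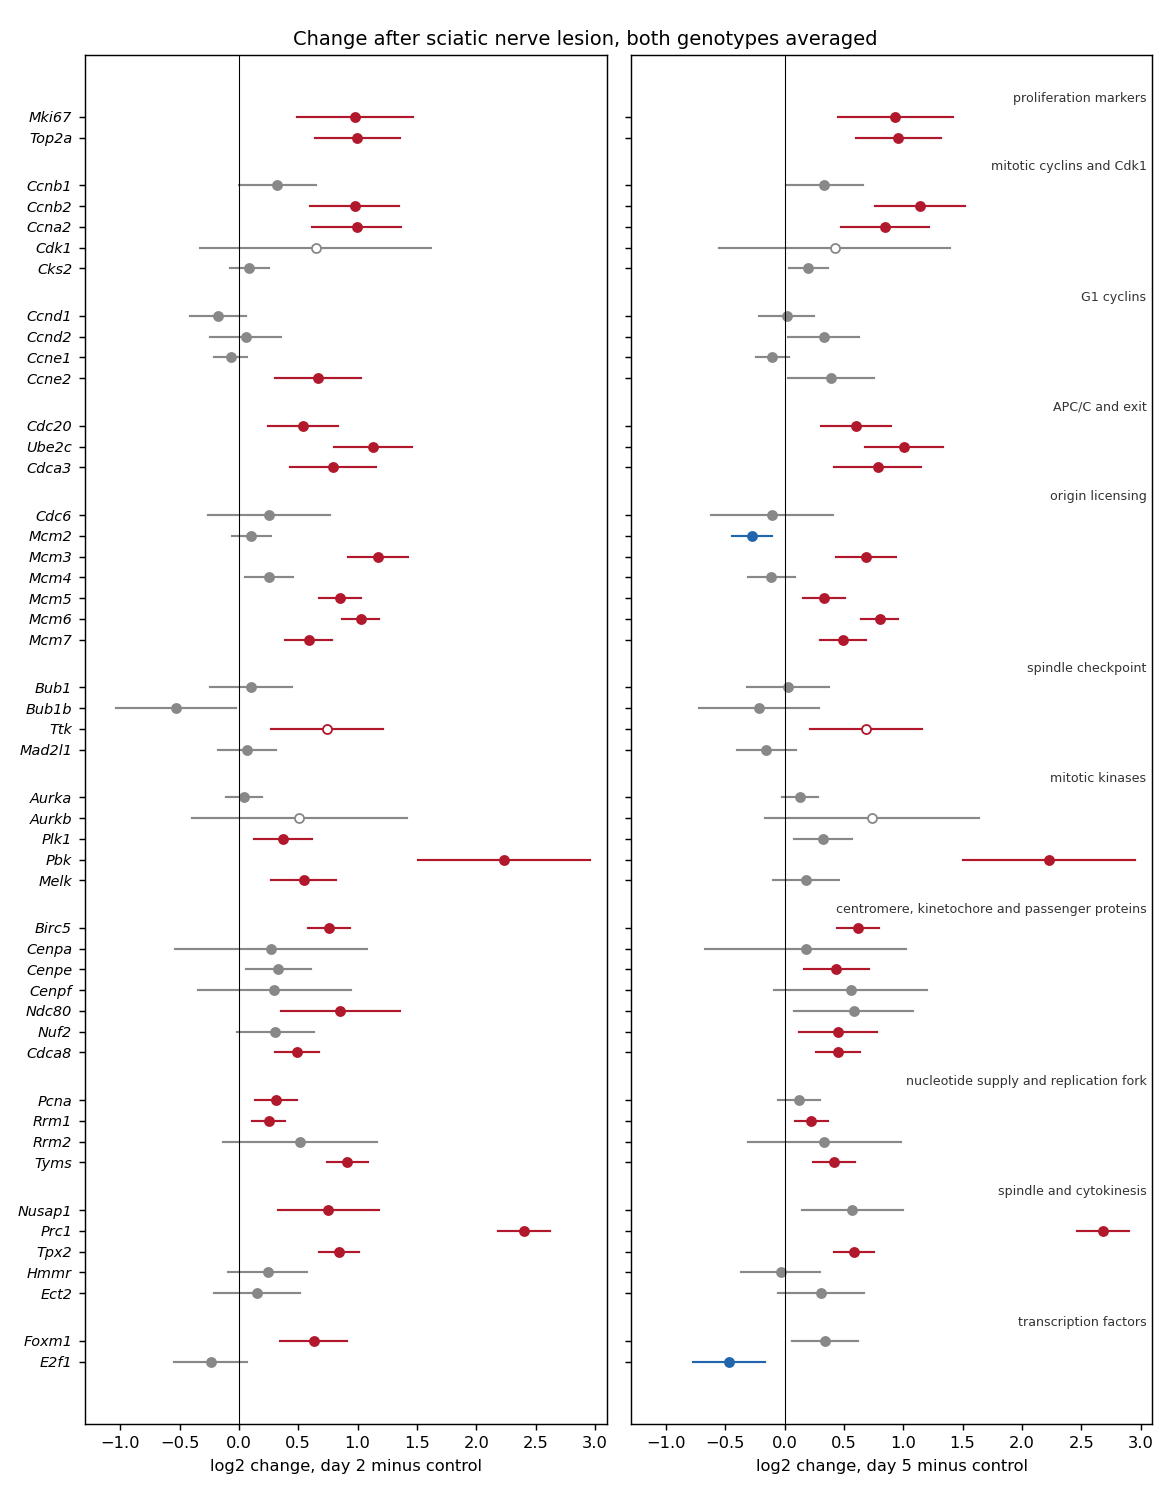
Change of each of the 48 genes at day 2 and day 5 post-lesion against control, on the log2 scale with 95% confidence intervals, both genotypes together, 8 lesion and 8 control samples per comparison. Red points passed the threshold as higher and blue points as lower, and hollow points were well above background in fewer than 4 of 24 samples; *Pbk* is drawn at its measured difference, for which the text gives a bound. *Prc1* stands to the right in both panels. Of the G1 cyclins only *Ccne2* at day 2 passed, although the day 5 intervals of *Ccne2* and *Ccnd2* also lie above 0.

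In the proliferation marker *Mki67* (probe at chr7:142881591-142881650 in mm9), whose protein coats mitotic chromosomes, values from lowest to highest were 6.81, 6.99, 7.09 and 7.25 in WT control, 7.85, 7.90, 8.61 and 8.78 in WT day 2 and 7.0, 7.93, 7.98 and 8.01 in WT day 5 samples. KO samples were at 6.46, 6.84, 7.39 and 7.61 in control, 7.43, 7.45, 7.67 and 8.58 at day 2 and 7.83, 7.97, 8.10 and 9.08 at day 5. Every WT day 2 sample and every KO day 5 sample was above all controls, while the lowest WT day 5 and KO day 2 samples lay within the control range. The change was 0.98 ± 0.23 (SE, n = 8 and 8, adjusted p = 0.00438 by limma) at day 2 and 0.93 ± 0.23 (adjusted p = 0.00545) at day 5, or 1.97-fold and 1.91-fold, and a second probe gave 1.06 and 0.80.

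*Top2a*, the topoisomerase that untangles replicated chromosomes, was near the limit of detection in control DRGs, where 4 of 8 samples were well above background, and above it in all 16 lesion samples. WT values were 3.26, 3.69, 4.43 and 4.62 in control, 4.74, 5.19, 5.49 and 5.73 at day 2 and 4.58, 4.79, 5.00 and 5.03 at day 5. KO values were 4.04, 4.14, 4.27 and 4.43 in control, 4.82, 4.90, 4.99 and 5.01 at day 2 and 5.01, 5.21, 5.29 and 5.64 at day 5. All day 2 samples lay above all controls, and at day 5 a single WT sample, at 4.58, lay below the highest control. The change was 1.00 ± 0.17 (adjusted p = 0.000236 by limma) at day 2 and 0.96 ± 0.17 (adjusted p = 0.000289) at day 5. Of its 3 probes, 2 were well above background in some sample, and only the brightest passed as higher at either time. The probe of *Top2a* that was well above background in no sample went the other way by -2.05 at day 5. With the 3 probes averaged neither difference passed (0.21 at day 2, adjusted p = 0.560 by limma, and -0.20 at day 5, adjusted p = 0.616).

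Among the mitotic cyclins, *Cdk1* and *Cks2*, 2 of the 5 genes rose at both times. *Ccnb2*, the cyclin B2 gene (chr9:70255671-70255730), was at 6.27, 6.35, 6.37 and 6.38 in WT control, 7.02, 7.25, 7.90 and 8.05 in WT day 2 and 7.08, 7.23, 7.52 and 7.59 in WT day 5 samples. Its KO values were 6.04, 6.34, 6.41 and 6.52 in control, 6.60, 6.81, 7.05 and 7.79 at day 2 and 7.21, 7.39, 7.55 and 8.25 at day 5. Every lesion sample exceeded every control sample. The change was 0.97 ± 0.18 at day 2 (adjusted p = 0.000520 by limma) and 1.14 ± 0.18 at day 5 (adjusted p = 7.99e-05). *Ccna2*, cyclin A2 of S phase and G2, rose by 0.99 and 0.85. *Ccnb1*, the cyclin B1 gene, was well above background in 7 of 24 samples, with differences of 0.32 (adjusted p = 0.161) and 0.33 (adjusted p = 0.151), and the CDK-binding subunit *Cks2* differed by 0.09 and 0.20, neither past the threshold.

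*Cdk1*, the kinase of mitotic entry, could not be measured reliably here. Its WT values were 2.09, 3.01, 3.26 and 4.09 in control, 3.50, 4.14, 4.39 and 4.87 at day 2 and 3.43, 3.67, 3.94 and 4.22 at day 5. In KO DRGs they were 3.02, 3.20, 3.61 and 3.62 in control, 0.89, 3.85, 4.41 and 5.03 at day 2 and 2.02, 3.70, 3.80 and 4.49 at day 5. The groups overlapped, no control sample was well above background, and no fold change is given, with adjusted p = 0.380 at day 2 and 0.621 at day 5 by limma.

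Of the 4 G1 cyclins, 1 passed the threshold at day 2 and none at day 5. *Ccnd1*, cyclin D1, was at 8.63, 8.71, 8.79 and 8.86 in WT control, 8.42, 8.44, 8.84 and 9.13 in WT day 2 and 8.64, 8.82, 8.95 and 9.03 in WT day 5 samples. In KO DRGs it was at 8.56, 8.82, 8.86 and 8.90 in control, 8.18, 8.24, 8.54 and 8.92 at day 2 and 8.56, 8.71, 8.75 and 8.79 at day 5. All groups overlapped, and the difference was -0.18 ± 0.11 at day 2 (95% interval -0.41 to 0.06, adjusted p = 0.310 by limma) and 0.02 ± 0.11 at day 5 (95% interval -0.22 to 0.25). Cyclin E2 (*Ccne2*) rose by 0.67 at day 2 (adjusted p = 0.00859 by limma) and differed by 0.39 at day 5 (adjusted p = 0.13). Its second probe, also detected, gave 0.20 and 0.14 and passed at neither time. Cyclin E1 (*Ccne1*) differed by -0.07 and -0.11 and cyclin D2 (*Ccnd2*) by 0.06 and 0.33, none of which passed.

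Several genes of origin licensing and nucleotide supply were higher at day 2 and lower again at day 5. *Mcm3*, a subunit of the MCM helicase (chr1:20793119-20793178), was at 6.61, 6.87, 6.93 and 7.0 in WT control, 7.76, 7.96, 8.15 and 8.51 in WT day 2 and 7.46, 7.50, 7.61 and 7.62 in WT day 5 samples. KO DRGs had 6.73, 6.74, 6.86 and 6.88 in control, 7.39, 7.76, 8.06 and 8.40 at day 2 and 7.33, 7.42, 7.50 and 7.69 at day 5. Every lesion sample was above every control. The change was 1.17 ± 0.12 at day 2 (2.25-fold, adjusted p = 5.78e-07 by limma) and 0.69 ± 0.12 at day 5 (adjusted p = 0.000235), and a second probe gave 1.04 and 0.71.

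The subunit *Mcm5* (chr8:77651350-77651410) was at 6.93, 7.18, 7.21 and 7.53 in WT control, 7.79, 8.02, 8.06 and 8.32 in WT day 2 and 7.42, 7.51, 7.52 and 7.55 in WT day 5 samples. In KO DRGs values were 7.10, 7.17, 7.20 and 7.27 in control, 7.86, 7.98, 8.19 and 8.20 at day 2 and 7.42, 7.48, 7.64 and 7.69 at day 5. In each genotype all day 2 samples were above all day 5 samples. The change fell from 0.85 ± 0.09 at day 2 (adjusted p = 3.87e-07 by limma) to 0.33 ± 0.09 at day 5 (adjusted p = 0.00685).

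*Tyms* (chr5:30387605-30387664), thymidylate synthase, which makes the thymidine nucleotide for DNA, had the same order of groups. It was at 7.10, 7.18, 7.20 and 7.24 in WT control, 7.75, 8.10, 8.17 and 8.27 in WT day 2 and 7.35, 7.44, 7.51 and 7.69 in WT day 5 samples, and in KO DRGs at 6.85, 7.10, 7.11 and 7.19 in control, 7.81, 7.88, 8.12 and 8.17 at day 2 and 7.43, 7.44, 7.69 and 7.71 at day 5. No lesion sample overlapped with the controls, and within each genotype day 2 lay above day 5. The change was 0.91 ± 0.08 at day 2 (adjusted p = 1.03e-07 by limma) and 0.41 ± 0.08 at day 5 (adjusted p = 0.000874). A second *Tyms* probe detected in all samples gave 0.81 and 0.47, and the dimmest of its probes, well above background in 4 of 24 samples, gave 0.25 and -0.22.

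*Mcm2* stood apart from the other helicase subunits in that it fell below control at day 5. Its WT values were 6.92, 6.96, 7.04 and 7.08 in control, 6.91, 7.16, 7.19 and 7.36 at day 2 and 6.72, 6.76, 6.86 and 6.92 at day 5, and its KO values 6.93, 6.97, 7.17 and 7.24 in control, 6.80, 7.19, 7.22 and 7.31 at day 2 and 6.56, 6.70, 6.73 and 6.86 at day 5. Day 2 samples overlapped with the controls, with a difference of 0.10 ± 0.08 (adjusted p = 0.415 by limma), and day 5 samples were 0.28 lower (change -0.28 ± 0.08, adjusted p = 0.0150). For *Mcm4*, WT values were 9.73, 9.73, 9.78 and 9.79 in control, 9.81, 9.86, 10.18 and 10.41 at day 2 and 9.50, 9.56, 9.73 and 9.84 at day 5, and KO values were 9.64, 9.90, 9.92 and 10 in control, 9.85, 9.97, 10.06 and 10.39 at day 2 and 9.59, 9.67, 9.76 and 9.95 at day 5. Its groups overlapped and neither difference against control passed (0.26, adjusted p = 0.0667, and -0.11, adjusted p = 0.498, by limma). Another probe of *Mcm4* passed as higher at both times (adjusted p = 0.0190 and 0.0107 by limma) but was well above background in no sample, so that no fold is given. *Mcm6* rose by 1.03 and 0.80 and *Mcm7* by 0.59 and 0.49, so that 4 of the 6 helicase subunits were higher at both times. *Cdc6*, the loader of the helicase, was well above background in 7 of 24 samples and differed by 0.25 and -0.11, neither past the threshold.

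Compared directly, day 5 was lower than day 2 for 5 of the 48 genes and higher for none (10.4%, against 3.08% of all probes in either direction and 1.09% as lower). These were *Mcm5* (-0.52 ± 0.09, adjusted p = 0.00111 by limma), *Tyms* (-0.50 ± 0.08, adjusted p = 0.00131), *Mcm2* (-0.38 ± 0.08, adjusted p = 0.00919), *Mcm3* (-0.48 ± 0.12, adjusted p = 0.0327) and *Mcm4* (-0.37 ± 0.10, adjusted p = 0.0415). They were named for this result after their values were seen, and 4 of them are subunits of the same helicase. *Mcm2*, *Mcm5* and *Tyms* passed with any single sample left out. *Mcm3* and *Mcm4* lay near the threshold, and the count fell to 3 without WT day 2 replicate 3, WT day 5 replicate 1 or 2, KO day 2 replicate 4, or KO day 5 replicate 1, 2 or 3, and also with the array as a random block or with probes of a gene averaged. *Prc1*, *Ccnb2* and *Cdc20* had day 5 minus day 2 differences of 0.28, 0.17 and 0.06, none past the threshold.

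**Figure D2:**
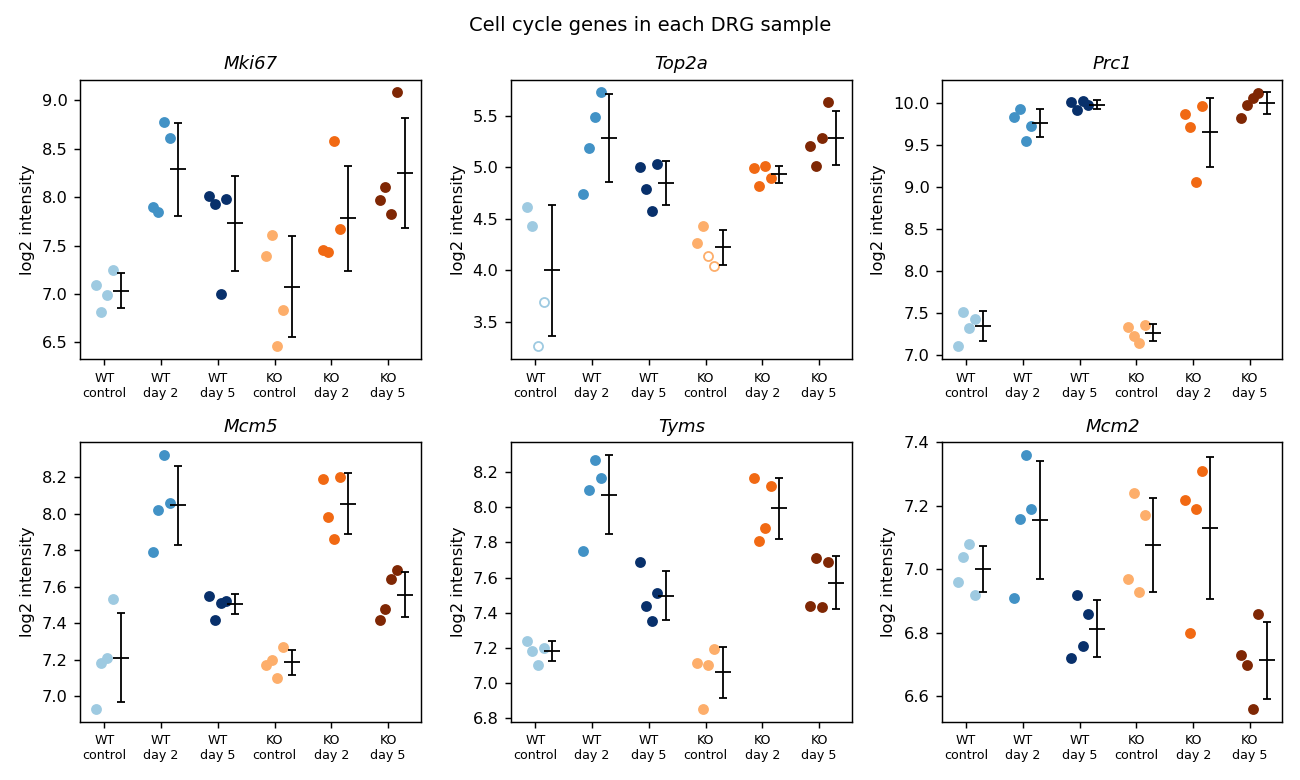
Log2 level in each sample of 6 genes by genotype and time after the lesion, with the mean and SD of each group of 4 as bars and hollow points where the probe was not well above background. *Prc1* stays high from day 2 to day 5, *Mcm5* and *Tyms* peak at day 2, and *Mcm2* lies below control at day 5.

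Other genes of DNA synthesis changed less. *Pcna*, the sliding clamp of the replication fork, was at 10.57, 10.58, 10.61 and 10.77 in WT control, 10.70, 10.88, 11.05 and 11.29 in WT day 2 and 10.67, 10.68, 10.85 and 10.86 in WT day 5 samples, and in KO DRGs at 10.51, 10.68, 10.73 and 10.77 in control, 10.66, 10.95, 11.07 and 11.13 at day 2 and 10.69, 10.73, 10.78 and 10.94 at day 5. Groups overlapped at both times, and the change was 0.32 ± 0.08 at day 2 (adjusted p = 0.0101 by limma) and 0.12 ± 0.08 at day 5 (adjusted p = 0.375). *Rrm1*, the large subunit of ribonucleotide reductase, was at 8.09, 8.14, 8.24 and 8.31 in WT control, 8.40, 8.40, 8.43 and 8.51 in WT day 2 and 8.32, 8.41, 8.42 and 8.42 in WT day 5 samples, and in KO DRGs at 7.98, 8.14, 8.23 and 8.27 in control, 8.21, 8.34, 8.55 and 8.58 at day 2 and 8.19, 8.46, 8.47 and 8.52 at day 5. All 4 samples of each WT lesion group were above every control, and in KO the lowest lesion samples were not. It rose by 0.25 ± 0.07 (adjusted p = 0.00994 by limma) and 0.23 ± 0.07 (adjusted p = 0.0187), the smallest change among the genes that rose at both times. With its 2 probes averaged neither change passed (0.23, adjusted p = 0.676, and 0.11, adjusted p = 0.867). *Rrm2*, the small subunit, was well above background in 10 of 24 samples and differed by 0.52 (adjusted p = 0.277) and 0.33 (adjusted p = 0.537).

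*E2f1*, a transcription factor of S phase genes, was lower after the lesion. WT values were 7.97, 8.05, 8.07 and 8.18 in control, 7.42, 7.63, 8.02 and 8.42 at day 2 and 7.24, 7.50, 7.58 and 8.11 at day 5, and KO values 7.84, 8.16, 8.34 and 8.46 in control, 7.61, 7.81, 7.97 and 8.28 at day 2 and 7.44, 7.71, 7.81 and 7.92 at day 5. Control and lesion samples overlapped at both times, and *E2f1* fell at day 5 (-0.47 ± 0.15, adjusted p = 0.0239 by limma) with a day 2 difference of -0.24 (adjusted p = 0.292). The day 5 call was lost without WT day 5 replicate 2 (adjusted p = 0.0575 by limma), KO control replicate 3 (0.0550) or KO day 5 replicate 2 (0.0555). A second, dimmer probe, also well above background in all 24 samples, passed as lower at both times (-0.33, adjusted p = 0.0221 by limma, and -0.50, adjusted p = 0.000766). *Foxm1*, a transcription factor of mitotic genes, rose by 0.63 at day 2 (adjusted p = 0.00182 by limma) and differed by 0.34 at day 5 (adjusted p = 0.0792).

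Among the genes with a measured fold, the largest change was that of *Prc1*. WT samples were at 7.10, 7.32, 7.43 and 7.51 in control, 9.54, 9.72, 9.83 and 9.93 at day 2 and 9.91, 9.98, 10.01 and 10.02 at day 5. In KO DRGs values were 7.14, 7.22, 7.33 and 7.36 in control, 9.06, 9.71, 9.87 and 9.96 at day 2 and 9.82, 9.98, 10.06 and 10.12 at day 5. The lowest lesion sample, at 9.06, was far above the highest control, at 7.51. The change was 2.40 ± 0.105 at day 2 (5.28-fold, adjusted p = 1.53e-12 by limma) and 2.69 ± 0.105 at day 5 (6.44-fold, adjusted p = 2.00e-13). A single probe represents *Prc1*, at chr7:87461038-87461093 in mm9.

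Of the other genes of spindle and cytokinesis, *Tpx2*, which activates Aurora A on spindle microtubules, was at 5.71, 5.71, 5.77 and 5.86 in WT control, 6.63, 6.63, 6.82 and 6.83 in WT day 2 and 5.99, 6.26, 6.27 and 6.32 in WT day 5 samples. KO samples were at 5.49, 5.64, 5.80 and 6.10 in control, 6.28, 6.48, 6.54 and 6.65 at day 2 and 6.38, 6.41, 6.52 and 6.57 at day 5. All day 2 samples were above all controls, and at day 5 the lowest WT sample, at 5.99, was below the highest KO control. It rose by 0.85 ± 0.08 at day 2 (adjusted p = 2.09e-07 by limma) and 0.58 ± 0.08 at day 5 (adjusted p = 1.96e-05). *Nusap1*, a spindle microtubule-binding protein, rose by 0.75 at day 2 (adjusted p = 0.0111 by limma) and differed by 0.57 at day 5 (adjusted p = 0.0503). The microtubule-associated *Hmmr* (0.24 and -0.03) and the cytokinesis factor *Ect2* (0.15 and 0.31) did not pass at either time.

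Among the mitotic kinases *Pbk* gave the clearest result, on a bound (probe at chr14:66436224-66436283). It was well above background in no control sample and in 15 of 16 lesion samples. WT values were 0.03, 0.62, 1.59 and 3.78 in control, 4.68, 4.87, 4.95 and 5.04 at day 2 and 4.13, 4.72, 5.05 and 5.17 at day 5, and KO values 3.1, 3.24, 3.54 and 3.89 in control, 4.32, 4.50, 4.64 and 4.66 at day 2 and 4.47, 4.66, 4.69 and 4.73 at day 5. No lesion sample overlapped with the controls. *Pbk* was at least 2.12-fold higher at day 2 (adjusted p = 8.05e-05 by limma) and at least 2.11-fold higher at day 5 (adjusted p = 6.38e-05). The bound is the mean of the lesion samples over a floor set in each control sample, the higher of its dimmest probe well above background and the *Pbk* probe.

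*Plk1*, the kinase of mitotic entry and spindle assembly, was at 6.01, 6.33, 6.37 and 6.45 in WT control, 6.49, 6.78, 6.88 and 7.08 in WT day 2 and 6.38, 6.43, 6.53 and 6.84 in WT day 5 samples, and in KO DRGs at 5.95, 6.06, 6.11 and 6.56 in control, 6.17, 6.37, 6.45 and 6.60 at day 2 and 6.23, 6.49, 6.61 and 6.91 at day 5. Lesion and control samples overlapped. The day 2 change of 0.37 ± 0.12 (adjusted p = 0.0272 by limma) lay close to the threshold, and was lost without any of WT control replicate 1, WT day 2 replicate 3, KO control replicate 1 or 3, or KO day 2 replicate 4 (adjusted p = 0.0518 to 0.0634). At day 5 it was 0.32 ± 0.12 (adjusted p = 0.0525). *Melk* rose by 0.54 at day 2 (adjusted p = 0.00533 by limma) and differed by 0.18 at day 5. *Aurka*, the Aurora kinase of centrosomes, differed by 0.04 and 0.13, and *Aurkb*, the kinase of the chromosomal passenger complex, was not well above background in any control sample and in only 2 lesion samples, so that no fold change is given.

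The 3 genes grouped under the anaphase-promoting complex and mitotic exit (*Ube2c*, *Cdc20* and *Cdca3*) rose at both times by their brightest probe. *Ube2c*, the ubiquitin-conjugating enzyme of the complex, rose by 1.13 and 1.00, *Cdc20*, its activator, by 0.54 and 0.60, and *Cdca3*, known as a trigger of mitotic entry rather than exit, by 0.79 and 0.78, with limma adjusted p between 2.36e-05 and 0.00861. A second probe of *Cdca3* passed at neither time (0.26, adjusted p = 0.392 by limma, and 0.50, adjusted p = 0.0681). Of the 7 centromere, kinetochore and passenger genes, 3 rose at day 2 and 4 at day 5. *Birc5* (survivin) and *Cdca8* (borealin), both of the chromosomal passenger complex, rose at both times, by 0.76 and 0.62 and by 0.49 and 0.45. Of the 3 *Cdca8* probes, 2 were well above background in some sample and only the brightest passed. The 3 ranged from -0.048 to 0.495 at day 2 and from -0.472 to 0.505 at day 5. The kinetochore genes differed in timing of the call: *Ndc80* passed at day 2 (0.85, then 0.58), and *Nuf2* and *Cenpe* at day 5 (0.31 then 0.45, and 0.33 then 0.44). *Cenpf* (0.30 and 0.56) did not pass.

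*Cenpa*, the histone variant of centromeres, was at 4.51, 4.57, 4.76 and 7.97 in WT control, 4.82, 5.22, 5.36 and 5.42 in WT day 2 and, in 3 measured samples, 4.63, 4.85 and 5.83 in WT day 5. KO DRGs were at 3.93, 4.08, 4.51 and 4.99 in control, 4.57, 5.26, 5.41 and 5.42 at day 2 and 4.75, 4.95, 5.03 and 5.59 at day 5. WT control replicate 4, at 7.97, was far above all other samples, and the differences of 0.27 and 0.18 did not pass. In the 1 WT day 5 sample without a value the spot was marked as an outlier, and the fit used the rest.

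By its brightest probe, no detected gene of the spindle checkpoint passed the threshold. *Bub1* (0.10 and 0.02), *Bub1b* (-0.53 and -0.22) and *Mad2l1* (0.07 and -0.15) did not pass at either time, although a second, dimmer *Bub1* probe rose by 0.60 at day 2 (adjusted p = 0.0161 by limma). *Ttk* passed as higher at both times with no sample well above background, and no fold change is given for it.

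Across the 3 slides, the median change of the 48 genes at day 2 was 0.58, 0.52 and 0.35 within slides, against 0, -0.04 and -0.01 over all probes, with 1, 4 and 3 day 2 samples. At day 5 it was 0.42, 0.55 and 0.25, against -0.04 on each slide. Without KO control replicate 4, the sample with conflicting labels, 25 genes passed at day 2 and 23 at day 5.

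In separate tests for each genotype, 19 of the 48 genes rose at day 2 in WT (39.6%, against 9.99% of all probes in either direction and 5.04% higher) and 13 in KO (27.1%, against 10.9% and 5.09%). At day 5, 10 rose in WT (20.8%, against 12.9% and 5.93%), and 16 rose and 1, *Mcm2*, fell in KO (35.4%, against 11.7% in either direction, 5.56% higher and 6.11% lower). Without KO control replicate 4 the KO counts were 11 and 14. All genes that passed over both genotypes changed in the same direction in each genotype, 26 of 26 at day 2 and 23 of 23 at day 5. Since they were picked by the average of both genotypes, this was likely from the start and is no separate support. These counts are not shown to differ between genotypes, since 0 of the 48 genes passed the time*genotype interaction, for which 0% of all probes passed. Unadjusted, 3 of the 48 had an interaction p under 0.05, against 2.23% of all probes. The paper reports a small set of genes regulated differently in KO, from a SAM time course test and the limma interaction, and names *Cenpa* among them. In the fit used here *Cenpa* did not pass, with an unadjusted interaction p of 0.333 by the limma F test. SAM was not run here.

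KO and WT did not differ past the threshold for any of the 48 genes in limma, where 0% of all probes passed in control, 0.0121% at day 2 and 0.0121% at day 5. At an unadjusted p under 0.05 the numbers were 1, 2 and 2 of 48, against 1.76%, 3.83% and 2.47% of all probes. Not even *Nfil3* passed in control after adjustment, at 8.44 to 9.01 in WT and 2.94 to 7.59 in KO samples. The absence of calls there does not show equal levels. In control, at day 2 and at day 5 the median KO minus WT difference was 0.00, -0.11 and 0.07, and the difference was above 0 for 24, 11 and 36 of the 48 genes. Medians over all probes were 0.02, 0.01 and 0.02. The counts of differences above 0 were not tested, and genes measured in the same samples are not independent of each other. For *Mki67* the KO minus WT difference was 0.04 in control (95% interval -0.65 to 0.73), -0.51 at day 2 (95% interval -1.19 to 0.18) and 0.52 at day 5 (95% interval -0.17 to 1.2). *Prc1*, with less spread, differed by -0.08 (95% interval -0.39 to 0.23), -0.11 (95% interval -0.42 to 0.20) and 0.02 (95% interval -0.29 to 0.32).

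The smallest unadjusted p in control DRGs was that of *Pbk* (KO minus WT 1.93, limma adjusted p = 0.9999, exact two-sided permutation p = 0.114), whose control samples were all below background, so that no fold change is given. The exact p here and below are of genes picked for their small limma p, with 0.0286 the smallest that 4 against 4 samples can give, and are not adjusted for this choice. Without WT control replicate 1, at 3.78 the highest WT control, the difference was 2.69 with adjusted p = 0.000569, and *Pbk* was then also the 1 gene past the interaction test. The next, *Cenpa* (-1.08, exact permutation p = 0.229), rests on the single WT control value of 7.97. At day 2 the smallest p were those of *Aurkb* and *Plk1*. *Aurkb* was at 4.30, 4.38, 4.41 and 4.45 in WT day 2 and 0.23, 2.12, 3.89 and 3.94 in KO day 2 samples, without overlap, but 1 of these 8 samples was well above background (-1.84, limma adjusted p = 0.9997, exact permutation p = 0.0286). In control it was at 2.99, 3.02, 3.36 and 4.11 and 1.07, 2.40, 3.29 and 3.40, and at day 5 at 3.70, 3.87, 3.92 and 4.08 and 2.70, 3.49, 3.78 and 3.97, with overlap between genotypes. For *Plk1* the difference was -0.41 (limma adjusted p = 0.9997, exact permutation p = 0.0571), with overlap between genotypes.

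At day 5 the smallest p were those of *Tpx2* and *Hmmr*. Slide 2 held no WT day 5 sample and slide 3 no KO day 5 sample, so that genotype and slide are partly confounded at this time. In *Tpx2* all 4 KO day 5 samples lay above all 4 WT day 5 samples (0.26, limma adjusted p = 0.9995, exact permutation p = 0.0286), while the day 2 difference was -0.24 (exact permutation p = 0.0857). *Hmmr* was at 4.36, 4.48, 5.06 and 5.40 in WT control, 4.96, 5.16, 5.35 and 5.36 in WT day 2 and 4.92, 4.93, 5.14 and 5.26 in WT day 5 samples, and in KO DRGs at 4.35, 4.74, 5.08 and 5.34 in control, 4.65, 4.76, 5.07 and 5.45 at day 2 and 4.38, 4.52, 4.65 and 4.73 at day 5. At day 5 the KO samples lay below the WT samples without overlap (-0.49, limma adjusted p = 0.9995, exact permutation p = 0.0286). The share of all probes without overlap between genotypes was not counted, for *Tpx2* and *Hmmr* here or for *Aurkb* above. A second probe of *Hmmr* lay the other way at day 5, with a mean of 4.48 in KO, where 4 of 4 samples were well above background, and of 4.22 in WT, where 1 of 4 was. The 3 genes with an unadjusted interaction p under 0.05 were *Pbk*, *Tpx2* and *Cenpe*, and none passed after adjustment by limma.

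**Figure D3:**
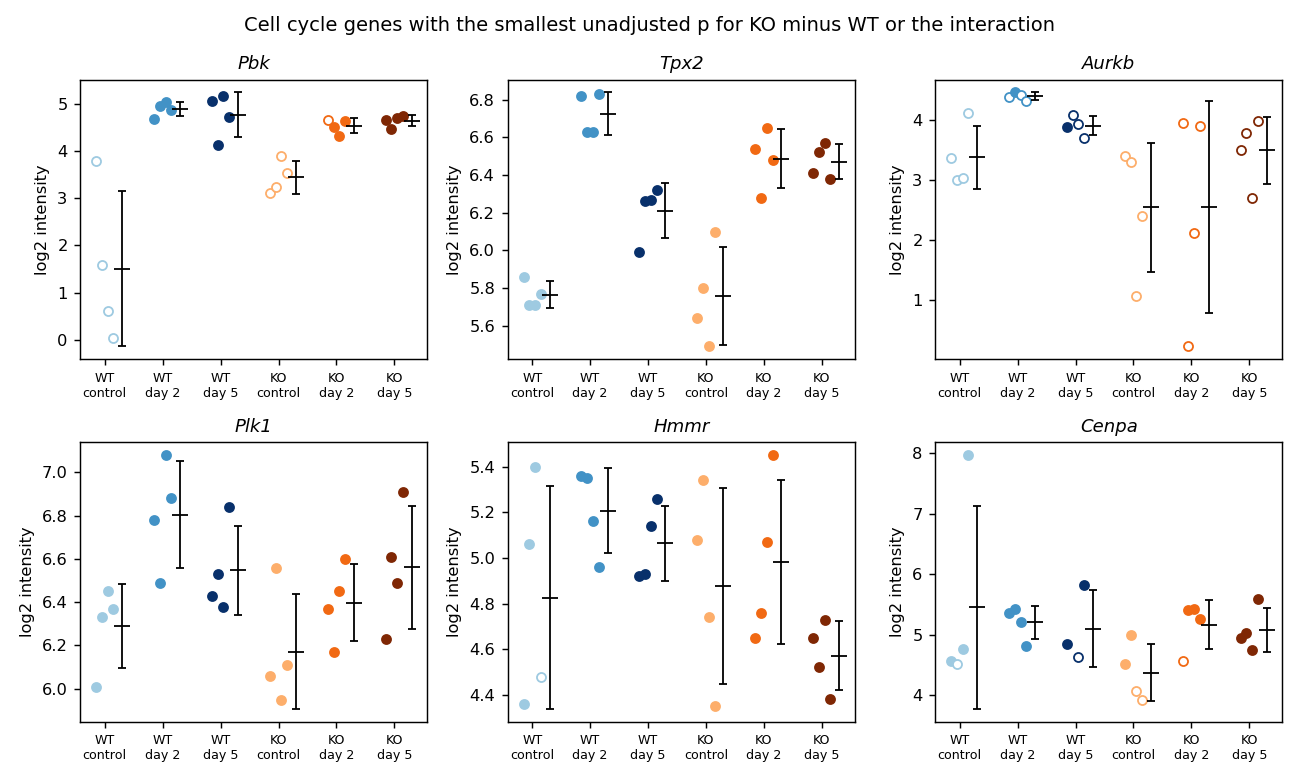
Log2 level in each sample of the 6 genes with the smallest unadjusted p for KO against WT at a time point, with mean and SD of each group of 4 as bars and hollow points where the probe was not well above background. *Pbk* controls and nearly all *Aurkb* samples are hollow, WT control replicate 4 of *Cenpa* stands alone at 7.97, and no gene passed the threshold.

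Outside the 48 genes, 137 further cell cycle genes were looked up and all were on the array. At day 2, 36 of them rose and 8 fell, where 9.33% of all probes passed as higher and 11.8% as lower. At day 5, 25 rose and 13 fell, against 9.6% and 12.6% of all probes. Between the times, 2 were higher and 5 lower at day 5 than at day 2, against 1.99% and 1.09%. The median change of the 137 was 0.12 at day 2 and 0.09 at day 5. Highest of those that passed were *Kif22*, a chromokinesin (3.39 and 3.73), and *Cdkn1a*, the p21 inhibitor of cyclin-dependent kinases (2.03 and 2.23). Lowest at day 2 were *Dlgap5* (-1.21), well above background in 5 of 24 samples, and *Hjurp*, the chaperone of the centromeric histone (-0.78), and at day 5 *Sgol2*, shugoshin of centromeric cohesion (-0.69), and *Ckap5*, a microtubule polymerase (-0.68).

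Markers of several cell types moved with the lesion as well. Of all probes, 9.33% passed as higher and 11.8% as lower at day 2. At day 5 these shares were 9.6% and 12.6%. Of 10 neuronal markers, all well above background in every sample, 8 fell at day 2, led by *Rbfox3* (-0.81) and *Nefh* (-0.72), and 7 fell, led by *Nefh* (-0.81) and *Snap25* (-0.76), and *Tubb3* rose (0.43) at day 5. Of 12 macrophage markers, all well above background in every sample, 8 rose at day 2, from *Cd14* (0.53) and *Itgam* (0.66) to *Cd68* (0.98) and *Mrc1* (1.10). All 12 rose at day 5, from *Cd14* (1.18) and *Ptprc* (1.25) to the complement genes *C1qb* (1.99) and *C1qa* (2.05). Their summed intensity was 2370 to 3990 in control, 3220 to 6200 at day 2 and 7960 to 12000 at day 5 samples. 11 of the 12 were higher at day 5 than at day 2 (1.99% of all probes), whereas *Mcm2* to *Mcm5* and *Tyms* were lower. Of 10 satellite glia markers, 4 rose and 4 fell at day 2, with *Gfap* (1.43) and *Glul* (0.78) highest and *Fabp7* (-0.91) and *Gja1* (-0.43) lowest. At day 5, 4 rose and 3 fell, with *Gfap* (1.22) and *Glul* (0.64) highest and *S100b* (-0.42) and *Fabp7* (-0.36) lowest. At day 2, 1 of 7 markers rose for Schwann cell myelin (*Pmp22*, 0.46) and 1 of 7 for endothelium (*Pecam1*, 0.28). At day 5, 1 of 6 rose for fibroblasts (*Lum*, 0.81). These single calls are near the share of all probes that passed as higher. None passed for T cells, erythroid cells, marrow granulocytes or muscle.

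The mean log2 level of the 12 macrophage markers was 7.15 to 7.82 in control, 7.56 to 8.48 at day 2 and 8.84 to 9.36 at day 5, so that it nearly separated the groups. With this level as a covariate, a fit added after seeing the data, 12 of the 48 genes were higher and 1, *Ccnd1*, lower at day 2, where 6.84% of all probes passed, and 1, *Prc1*, was higher at day 5, where 0.449% passed. Several differences that lost the call stayed about as large while their errors grew. *Mki67* was at 0.98 ± 0.38 at day 2 and 0.92 ± 0.79 at day 5 with the covariate, with a day 5 error of 0.23 without it. At day 5 *Ccnb2* was at 1.03 ± 0.61, *Top2a* at 1.3 ± 0.57 and *Pbk*, as a fitted value and not a fold, at 2.73 ± 1.16. Other differences shrank or changed sign. At day 5 *Mcm3* was at -0.47 ± 0.29, *Mcm5* at -0.27 ± 0.25, *Tyms* at -0.19 ± 0.24 and *Cdc20* at -0.08 ± 0.45 with the covariate. *Cdca3* and *Mcm7* were at 0.06 ± 0.57 and 0.05 ± 0.30. The part of macrophages in the changes was not tested.

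Levels of *Mki67*, *Ccnb2* and *Cdca3* followed markers of marrow granulocytes (*Ngp*, *Ltf*, *Camp* and others), which differed widely between samples of the same group. Of these 9 markers 7 were well above background in all 24 samples, *Prtn3* in 19 and *Elane* in 5, and their summed intensity was 10900 to 39300 in control, 9360 to 83800 at day 2 and 6350 to 83700 at day 5 samples. The mean log2 level of the 8 markers well above background in more than 12 samples was lowest in WT day 5 replicate 3, at 7.45, the sample with *Mki67* at 7.0, and highest in KO day 5 replicate 4, at 10.9, the sample with *Mki67* at 9.08. In a fit with this level as a covariate, also added after seeing the data, the slope passed as positive for 3 of the 48 genes, against 0.197% of all probes, and as negative for none. It was 0.47 ± 0.06 for *Mki67* (adjusted p = 0.000151 by limma), 0.34 ± 0.05 for *Ccnb2* (adjusted p = 0.00436) and 0.31 ± 0.06 for *Cdca3* (adjusted p = 0.0340). With the level in the fit *Mki67* was still higher, by 0.66 at day 2 (adjusted p = 0.000450 by limma) and 0.55 at day 5 (adjusted p = 0.00232), and 25 of the 48 genes passed at day 2 (19.6% of all probes in the same fit) and 21 at day 5 (20.3%). For *Mcm5* (0.02) and *Prc1* (-0.10) the slope did not pass.

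**Figure D4:**
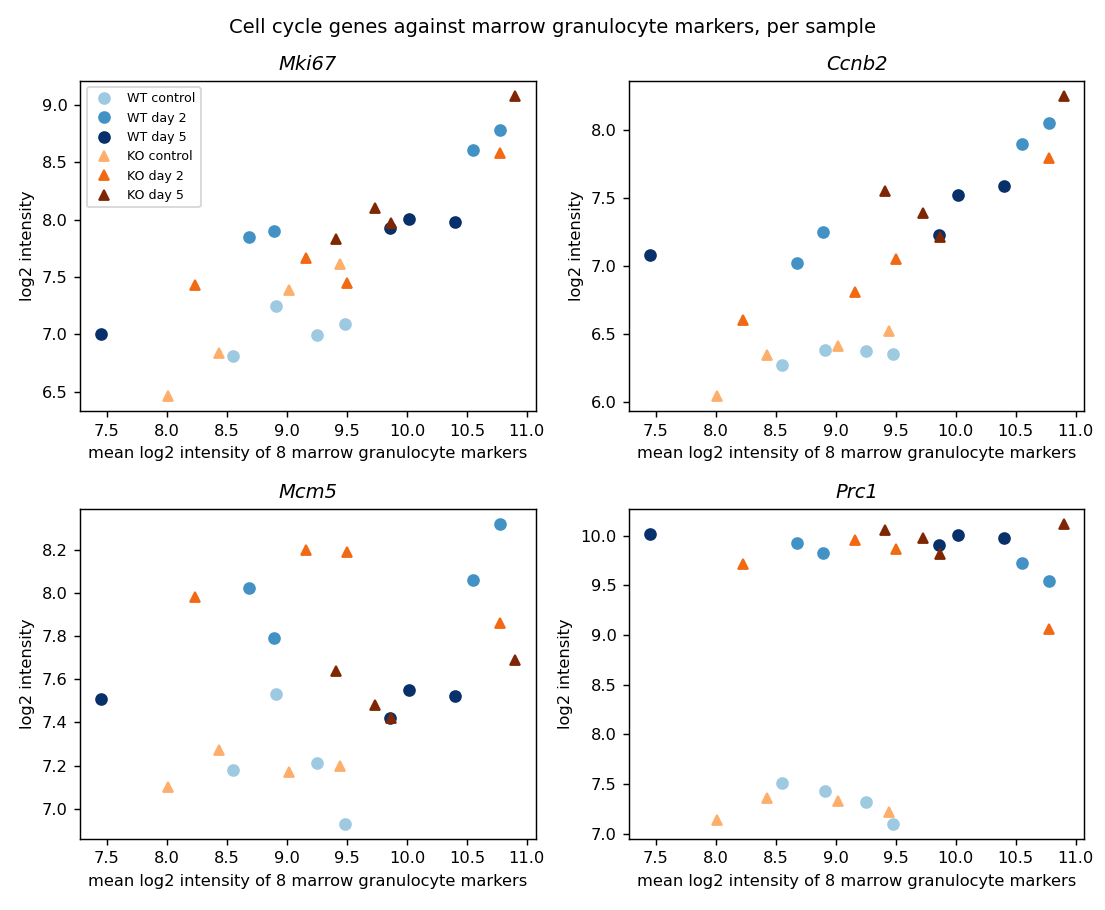
Log2 level of *Mki67*, *Ccnb2*, *Mcm5* and *Prc1* in each of the 24 samples against the mean log2 level of 8 marrow granulocyte markers in that sample, colored by group. *Mki67* and *Ccnb2* rise along the axis within groups, whereas the slope did not pass for *Mcm5* and *Prc1*, and all lesion samples lie above all controls for *Prc1*.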

How the data were processed

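Scans were read with Agilent Feature Extraction by the authors, whose deposited files give a foreground and a background intensity for each spot and channel, not normalized, with marks for outlier spots and for signal well above background. All values were computed here from these intensities. Background correction was by the Edwards method, the 24 channels were quantile normalized on the log2 scale, outlier spots were left out (417 probe values missing), and spots of a probe were averaged. The order of these steps was chosen to match an earlier analysis of these data. Feature Extraction's processed signals served as an alternative only, among others given in the closing section.

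For all 41174 probes, group means were fitted in R 4.3.3 with limma 3.58.1 (statmod 1.5.0 and the data.table package, 1.17.8). Contrasts were tested by eBayes with Benjamini-Hochberg adjustment over all probes and a threshold of 0.05, and the time*genotype interaction by an F test. The 2 samples of an array were fitted as independent. With the array as a random block, an alternative given in the closing section, the correlation within arrays was 0.266. A gene was represented by its brightest probe. Lesion changes are over both genotypes, weighted equally. All 48 genes are named, and values per sample are given for *Mki67*, *Top2a*, *Cdk1*, *Ccnd1*, the 3 highest and 3 lowest changes past the threshold at each time, and the 2 smallest p for KO minus WT at each time and for the interaction. *Mcm4*, *Mcm5* and *Tyms* were added after their values were seen. Of other lists, the 2 highest and 2 lowest changes past the threshold are named. The genes, marker lists and tests were chosen with earlier results of these data known. The scripts were tested on simulated data.

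Samples were grouped by title and source name. KO control replicate 4 was kept as control. The paper states 4 independent replicates per condition, but the labels do not tie control DRGs to the operated mice. Replicate numbers were not taken as pairing the samples. Depth on arrays is signal over background, no spot was saturated, and the 4 samples per group limit the precision. Promoter windows were matched by symbol.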

Additional observations from a re-analysis of the deposited data

Results flagged for a closer look

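Of 119 groups of 4 values tested with Dixon's criterion over the genes named here, 5 had a sample far from the others, where chance alone gives about 1 in 20. *Mki67* in WT day 5 replicate 3 was at 7.0, with the other samples of the group at 7.93 to 8.01, and this was the sample with the lowest level of marrow granulocyte markers. *Cenpa* in WT control replicate 4 was at 7.97, with the others at 4.51 to 4.76. *Pcna* in WT control replicate 1 was at 10.77, with the others at 10.57 to 10.61. *Rrm1* was low in WT day 5 replicate 4, at 8.32 against 8.41 to 8.42, and in KO day 5 replicate 2, at 8.19 against 8.46 to 8.52.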

How the results depend on the processing

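The numbers of the 48 genes that passed stayed within 1.5 times of those reported under the alternatives for background correction, foreground, normalization and its order, outlier spots, dim probes, dye, slide, array partner, array and eBayes prior, with the exceptions that follow. In WT at day 5, 16 genes passed with the processed signals. Between day 5 and day 2, 3 passed (*Mcm2*, *Mcm5* and *Tyms*) with probes averaged or with the array as a random block. With the macrophage marker level as a covariate, which nearly separates lesion from control samples, 13 passed at day 2, 1 at day 5, 3 between day 5 and day 2, 11 in WT at day 2, 1 in WT at day 5 and 1 in KO at day 5. Among the single differences followed through the alternatives, *Top2a* at day 5 reversed to -0.195 with probes averaged, and *E2f1* at day 5 to 0.003 with the macrophage level. The day 5 changes of *Mcm3*, *Mcm5*, *Tyms* and *Cdc20*, not among those followed, also changed sign with the macrophage level. The cause was not tested.

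With each sample left out in turn, 25 to 29 genes passed at day 2, 20 to 25 at day 5, 3 to 5 between day 5 and day 2, 16 to 22 in WT at day 2, 8 to 11 in WT at day 5, 11 to 16 in KO at day 2 and 12 to 19 in KO at day 5. KO minus WT gave 0 to 1 in control, 0 to 0 at day 2 and 0 to 0 at day 5, and the interaction 0 to 1. With the replicate number as a block, 27 passed at day 2, 23 at day 5 and 5 between day 5 and day 2, and no other count moved by over 1.5 times. Same-numbered samples correlated at -0.0644 to 0.205 in their deviations (median 0.07, against -0.0306 for other pairs), and 11 of 24 correlated best with their own number. In every group replicates 1 and 2 were in Cy3 and replicates 3 and 4 in Cy5, so that number and dye are tied. These correlations can therefore neither show nor exclude pairing. By the rule used, that every pair be above 0.1, the numbers were not taken as pairing. Depth limits *Ttk*, *Aurkb*, *Cdk1*, *Ccnb1*, *Cdc6* and *Rrm2*, which were at or under background in most samples.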
